A study of Homo sapiens with 24 samples.

Results

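Collagens, laminins and integrins are the main fibers, sheets and receptors of the extracellular matrix. The members were taken by gene symbol, as every protein-coding gene on the array whose symbol is COL with a digit, LAMA, LAMB or LAMC with a digit, ITGA with a digit or letter, or ITGB with a digit. This gave 85 genes, of which 83 passed the filter on dim spots among 21239 genes in all. COL4A6 and ITGA1, the alpha 1 subunit that binds collagen, did not pass. The 83 genes were 43 collagen chains, 12 laminin chains, 25 integrin subunits and 3 proteins that bind integrin beta subunits and carry their symbols (ITGB1BP1, ITGB1BP2 and ITGB3BP).

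RNA came from 3D aggregates of LUHMES cells, 1 human mesencephalic line made conditionally immortal with a v-myc gene that tetracycline shuts off, so that the cells differentiate into dopaminergic neurons. Tetracycline, cAMP and GDNF were in the differentiation medium of all groups. Aggregates received rotenone, an inhibitor of complex I of the respiratory chain, at 50 nM for 12 h, at 50 nM for 24 h or at 100 nM for 24 h, or the DMSO vehicle. They were collected on day 8 of differentiation, which for 24 h was the end of the exposure, or on day 15, after wash-out of rotenone and recovery. The sample titles give the 12 h exposure without its start. Each of the 8 groups had 3 arrays, 1 on each of 3 slides, and the replicate number was the slide number. Nothing in the labels said whether replicates came from separate cultures, so that p values measure the spread between these samples.

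Collagens are trimers of chains that are wound around each other in the secretory pathway, and the chains of 1 trimer are often made by different genes. Laminins are cross-shaped trimers of an alpha, a beta and a gamma chain that build the basement membrane together with collagen IV. Integrins are pairs of an alpha and a beta subunit at the cell surface, where the alpha subunit largely sets whether collagen, laminin or an RGD motif is bound, and in developing neurons they carry neurite growth on laminin and collagen.

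The share of spots well above background ranged from 50.9% to 82.4% over the 24 arrays and was highest on slide 1. Precision is set by having 3 arrays in a group. Day 15 100 nM replicate 3 stood apart, with a residual SD of 0.45 on the log2 scale over all genes. The group of day 15 DMSO replicate 1 rests on its label, since the name of its scan does not give DMSO. Of 13 neuronal markers, 13 were well above background on every array of every group. Of 11 dopaminergic markers, 7 or 8 were above background on all arrays of a group, and SLC18A2, the vesicular monoamine transporter, was above background on no array of DMSO on day 8. Their levels differed between the days. In DMSO the group mean of TH was 9.78 on day 8 and 6.84 on day 15, and that of SLC6A3 was 8.22 and 6.15. EN1 (9.285 and 8.791) and DDC (4.65 and 4.33) were also lower on day 15. NR4A2 (6.18 and 7.76), KCNJ6 (5.21 and 6.37), PITX3 (7.48 and 7.94) and FOXA2 (4.44 and 5.82) were higher on day 15. FOXA2 was above background on 2 of 3 DMSO arrays of day 8. SLC18A2, ALDH1A1 and LMX1A were above background on at most 1 DMSO array of either day. In bulk RNA, fewer cells of a type and less RNA per cell cannot be told apart.

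Values are normalized log2 signals, and a difference is a log2 fold change, given with its standard error as SE. Adjusted p values come from limma with Benjamini-Hochberg adjustment over all 21239 genes. A gene was called at a fold change over 1.5, which is 0.585 on the log2 scale, together with an adjusted p under 0.05. No signal is compared between genes, since probes differ in brightness. A gene counts as well above background on an array if any of its probes does.

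Of the 83 genes, 33 were well above background on every array of all groups, 55 on every array of at least 1 group, and 8 on no array. The 33 included COL1A2, COL4A1, COL4A2, COL5A1, COL5A2, COL6A1, COL6A2, COL18A1, all 3 chains of collagen IX, the laminin chains LAMA1, LAMA2, LAMA4, LAMA5, LAMB1, LAMB2 and LAMC1, and the integrin subunits ITGA3, ITGA7, ITGAV and ITGB1. The 8 genes on no array were COL3A1, COL4A3, COL11A1, COL12A1, COL22A1, ITGA2, ITGA8 and ITGB8. COL3A1 and COL12A1 mark fibroblasts, and ITGA2 is the alpha 2 subunit that binds collagen. Laminin chains LAMB3 and LAMB4 were above background on no array of day 8. COL6A3, the third chain of the common collagen VI trimer, was above background on no DMSO array of either day. Of 12 markers of fibroblasts, pericytes and smooth muscle, 4 or 5 were above background on all arrays of a group, POSTN and THY1 were above background on no array of any group, and the mean over the list was between 4.61 and 4.68 in DMSO on day 8 and between 4.54 and 4.78 in DMSO on day 15. The brightest of them in DMSO were TAGLN, with group means of 6.42 on day 8 and 7.07 on day 15, and PDGFRB, with 6.07 and 6.66. The list did not move in 1 direction between the days. ACTA2, with 5.33 and then 4.245, and PDGFRA, with 4.77 and then 4.12, were lower on day 15, and LUM, with 4.85 and then 5.45, was higher. ACTA2 was above background on 3 DMSO arrays of day 8 and 1 of day 15. DCN was above background on no DMSO array of day 8 and on 3 of day 15.

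**Figure D1:**
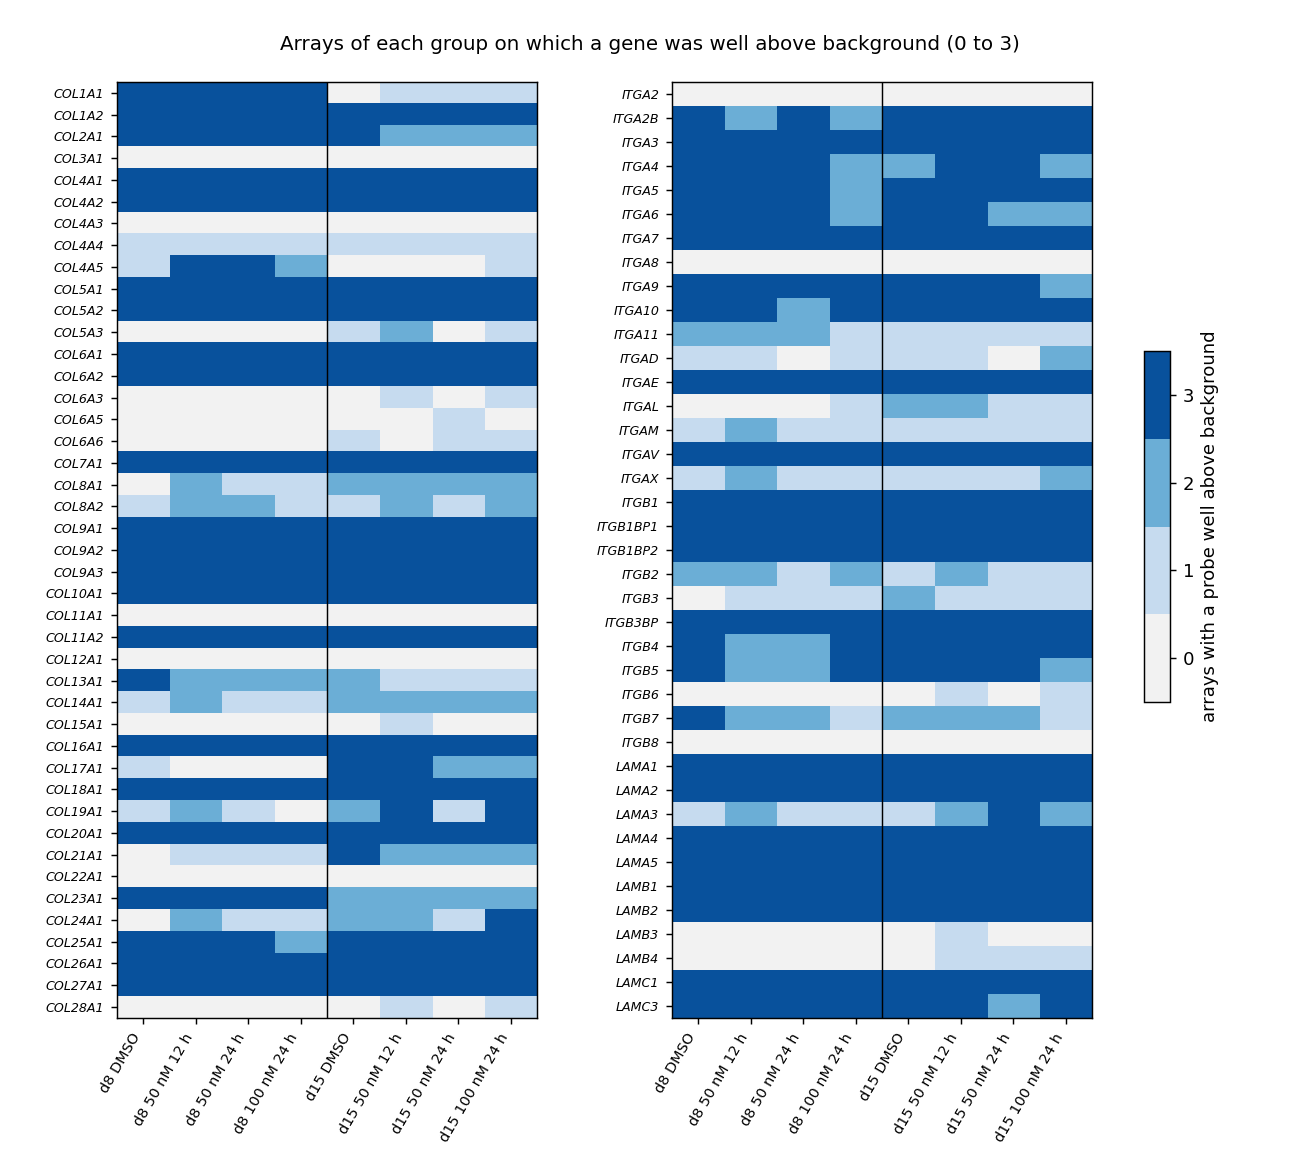
Number of arrays, from 0 to 3, on which each gene had a probe well above background, for the genes named on the rows in the 8 groups (columns, d8 and d15 for the days). Dark rows such as COL4A1, COL4A2 and the collagen IX chains were measured on all arrays, while COL3A1, ITGA2, ITGA8 and ITGB8 were above background on no array.

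With rotenone on day 8, ITGA10 and COL5A2 fell in each of the 3 exposures. ITGA10 makes the alpha 10 subunit, which pairs with beta 1 to bind collagen, and COL5A2 makes the alpha 2 chain of collagen V, which starts collagen fibrils. ITGA3, the alpha 3 subunit that pairs with beta 1 to bind laminin, rose with 100 nM. COL5A1, the other chain of the common collagen V trimer, rose with 50 nM for 24 h. With 100 nM, 3 of 83 genes were called (3.61%), 1 up and 2 down, against 3.45% of all genes, 1.43% up and 2.02% down. With 50 nM for 24 h, 3 genes were called, 1 up and 2 down, against 2.8% of all genes, 1.38% up and 1.42% down. With 50 nM for 12 h, 2 genes were called, 0 up and 2 down, against 1.75% of all genes, 0.829% up and 0.923% down. The shares were near those of all genes. A fold change over 1.5 with an unadjusted p under 0.01 was reached by 3, 4 and 2 genes, against 3.81%, 3.2% and 2.15% of all genes. The added gene was COL23A1, which was higher with 50 nM for 24 h and was not called. Its group mean was 5.65 in DMSO, 6.36 with 50 nM for 12 h, 6.59 with 50 nM for 24 h and 6.35 with 100 nM. All its rotenone arrays of day 8 were above all DMSO arrays. An unadjusted p under 0.05 was reached by 12, 14 and 11 genes, against 20.6%, 19.6% and 16.8%. In these comparisons the median log2 fold change over the 83 genes was 0.02, 0.05 and 0.02, against -0.02, -0.02 and -0.01 over all genes. The 3 comparisons share the DMSO arrays.

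**Figure D2:**
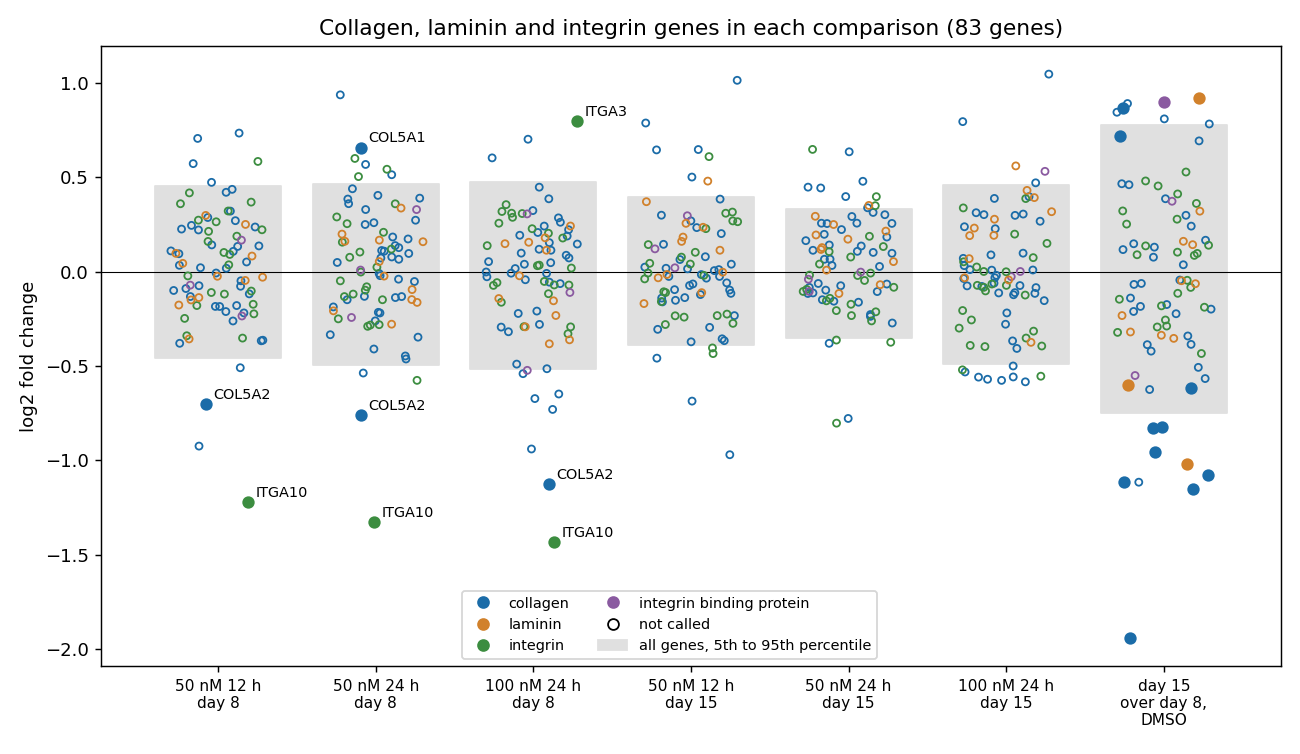
Log2 fold change (y axis) of the 83 genes in 6 comparisons of rotenone with the DMSO of the same day and in DMSO between the days (x axis). Filled circles passed both thresholds, open circles did not, colors give the family, and the gray band spans the 5th to 95th percentile of all genes. The genes called on day 8 are ITGA10, COL5A2, ITGA3 and COL5A1, there are none on day 15, and 14 changed between the days in DMSO.

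The ITGA10 signal was 6.57, 6.63 and 6.40 in DMSO on day 8. It was 5.44, 5.21 and 5.29 with 50 nM for 12 h, 5.15, 5.26 and 5.20 with 50 nM for 24 h, and 4.93, 5.25 and 5.11 with 100 nM. All 9 rotenone arrays of day 8 were below all DMSO arrays, by a distance wider than the spread within any group. The log2 fold change was -1.22 (SE 0.12, adjusted p = 9.7e-06) with 50 nM for 12 h, -1.33 (SE 0.12, adjusted p = 3.4e-06) with 50 nM for 24 h, where 2 of 3 rotenone arrays were well above background, and -1.43 (SE 0.12, adjusted p = 9.2e-07) with 100 nM. A fold change of 2.70 separated the 100 nM and DMSO groups, and on slides 1, 2 and 3 taken alone, without batch correction, the difference was -1.63, -1.38 and -1.28. Over the alternatives the 100 nM value ranged from -1.96 to -0.75 and was called in each. The ITGA10 values rest on 1 probe.

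Against 50 nM for 24 h, 100 nM differed by -0.11 for ITGA10, with a 95% interval from -0.36 to 0.15. After wash-out, ITGA10 was 6.11, 6.22 and 6.51 in DMSO on day 15 and 6.50, 6.42 and 6.13 after 100 nM. These groups overlapped, with a log2 fold change of 0.07 (SE 0.12, 95% interval from -0.18 to 0.33). The effect of 100 nM on ITGA10 differed between the days by 1.51 (SE 0.17, adjusted p = 1.1e-04), and the difference was not called with slides 2 and 3 only, at 1.24 (adjusted p = 0.089). The other collagen-binding alpha subunits gave no call on day 8, with ITGA11 above background on 1 or 2 arrays of each group and ITGA2 on none. ITGB1, the beta 1 subunit that all of them pair with, was 8.23, 8.26 and 8.28 in DMSO and 8.55, 8.46 and 8.30 with 100 nM, a difference of 0.18 (SE 0.16, adjusted p = 0.63).

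**Figure D3:**
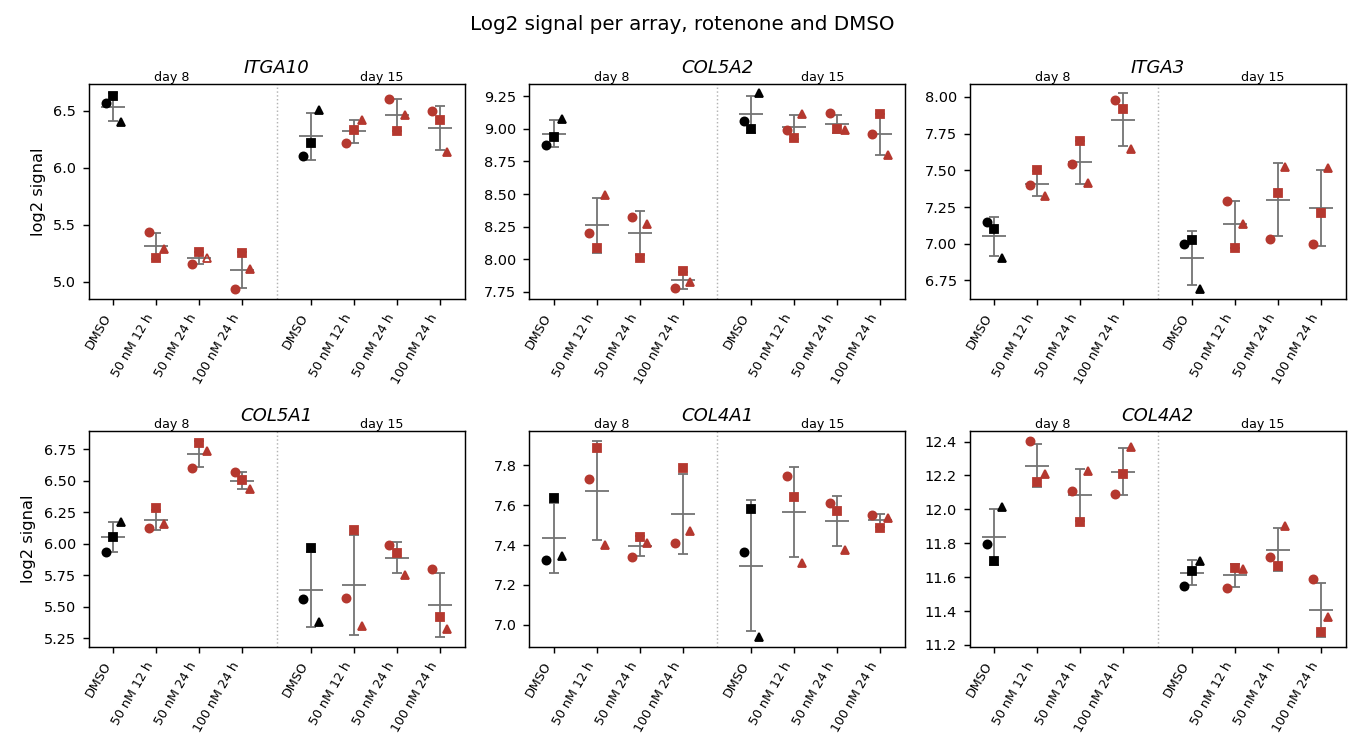
Normalized log2 signal (y axis) of 6 genes on each array, by group (x axis), with DMSO in black and rotenone in red. Circles, squares and triangles are slides 1, 2 and 3, open symbols are not well above background, and bars give the mean ± SD (n = 3). ITGA10 and COL5A2 are below DMSO on every rotenone array of day 8 and within its range or close to it on day 15.

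The promoter of ITGA10 is shown because this gene had the largest called change with rotenone. The window runs from 250 bases before to 50 bases after the start of transcription (chr1:145910001-145910300, minus strand of GRCh38.p14, from RefSeq). Capitals mark a match to GGAATG, the motif of TEAD factors, on either strand, and the windows below mark GGGCGG, bound by SP and KLF factors, in the same way. Windows were given for 59 of the 83 genes.
ITGA10: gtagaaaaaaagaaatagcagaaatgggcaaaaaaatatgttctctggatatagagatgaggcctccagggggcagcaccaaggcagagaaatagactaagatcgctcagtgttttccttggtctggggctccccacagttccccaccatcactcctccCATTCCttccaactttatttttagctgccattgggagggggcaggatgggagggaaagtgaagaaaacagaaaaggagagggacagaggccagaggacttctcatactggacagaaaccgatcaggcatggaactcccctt
GGAATG was found in 5 of the 59 windows (8.47%) and in 14% of all 27305 windows. GGGCGG was in 33 of the 59 (55.9%) and in 44.6% of all windows, TGANTCA, the motif of AP-1, in 2 (3.39%) and 7.76%, and the CArG box of SRF in 2 (3.39%) and 1.29%. A match is only a match of letters.

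Among the fibrillar collagens, which form the banded fibers of tissue, the collagen V chains were the ones called. COL5A2 was 8.87, 8.94 and 9.08 in DMSO on day 8, 8.20, 8.09 and 8.49 with 50 nM for 12 h, 8.32, 8.01 and 8.27 with 50 nM for 24 h, and 7.78, 7.91 and 7.83 with 100 nM. No rotenone array reached the lowest DMSO array. The log2 fold change was -0.70 (SE 0.12, adjusted p = 0.0011), -0.76 (SE 0.12, adjusted p = 0.00036) and -1.12 (SE 0.12, adjusted p = 5.2e-06). The 12 h value lost its call without batch correction (adjusted p = 0.051), with slides 2 and 3 only (0.16) and with only the compared groups in the fit (0.091). The value of 50 nM for 24 h lost it with slides 2 and 3 only (0.063). COL5A2 was lower with 100 nM than with 50 nM for 24 h with a difference of -0.36 (95% interval from -0.61 to -0.12), which did not pass adjustment over all genes (limma, unadjusted p = 0.0056, adjusted p = 1.0).

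On day 15, COL5A2 was 9.06, 9.0 and 9.27 in DMSO and 8.96, 9.11 and 8.80 after 100 nM. The groups overlapped, at -0.15 (SE 0.12, 95% interval from -0.40 to 0.09). The effect of 100 nM on COL5A2 differed between the days by 0.97 (SE 0.16, adjusted p = 0.0026). The difference was not called when slides 2 and 3 alone were used, which left 2 arrays a group (adjusted p = 0.28), or without batch correction (adjusted p = 0.11).

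COL5A1 moved the other way on day 8. It was 5.94, 6.05 and 6.18 in DMSO, 6.12, 6.28 and 6.16 with 50 nM for 12 h, 6.60, 6.80 and 6.73 with 50 nM for 24 h, and 6.57, 6.51 and 6.43 with 100 nM. Both 24 h groups were above all DMSO arrays. With 50 nM for 24 h COL5A1 rose by 0.66 (SE 0.17, adjusted p = 0.021), and with 100 nM the difference was 0.45 (SE 0.17, adjusted p = 0.12). The call was lost without DMSO replicate 1 (adjusted p = 0.091) or replicate 2 (0.061), without 50 nM replicate 2 (0.077) or 3 (0.066), and also without batch correction (0.093) and with slides 2 and 3 only (0.23). With an offset of 50 and with the authors' own values the fold change was under the threshold, at 0.48 and 0.49. COL5A1 was measured by 2 probes. With 100 nM, the brighter one, above background on all arrays, rose by 0.65 and the dim one, above background on no DMSO array, differed by 0.24.

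The other fibrillar chains gave no call with rotenone. COL1A2, 1 of the 2 chains of collagen I, was 4.92, 4.80 and 4.70 in DMSO on day 8 and 5.10, 5.35 and 4.95 with 100 nM, so that the groups did not overlap. The difference was 0.32 (SE 0.17, adjusted p = 0.28) and became a call with the processed signal, at 0.83 (adjusted p = 0.0070). With the processed signal limma also called COL1A2 up with 50 nM for 12 h, at 1.09 (adjusted p = 0.0014), and for 24 h, at 0.83 (adjusted p = 0.0077). COL1A1 was 5.34, 5.18 and 5.28 in DMSO and 5.54, 5.50 and 5.62 with 100 nM, at 0.29 (SE 0.45, adjusted p = 0.83). COL2A1, the chain of cartilage collagen, was lower with 50 nM for 12 h by -0.92 (SE 0.34, adjusted p = 0.14) and with 100 nM by -0.65 (SE 0.34, adjusted p = 0.30), and neither passed the test.

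ITGA3 was the only laminin-binding alpha subunit called. Its signal was 7.15, 7.10 and 6.90 in DMSO on day 8, 7.40, 7.50 and 7.33 with 50 nM for 12 h, 7.54, 7.70 and 7.41 with 50 nM for 24 h, and 7.98, 7.92 and 7.64 with 100 nM. All rotenone arrays were above all DMSO arrays. The log2 fold change was 0.36 (SE 0.15, adjusted p = 0.21), 0.50 (SE 0.15, adjusted p = 0.044, with a fold change under 1.5) and 0.80 (SE 0.15, adjusted p = 0.0017), a fold change of 1.74 with 100 nM. Between 100 nM and 50 nM for 24 h the difference was 0.29 (95% interval from -0.02 to 0.61). Slides 2 and 3 alone left ITGA3 without a call with 100 nM, at 0.80 (adjusted p = 0.079).

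On day 15, ITGA3 was 7.00, 7.02 and 6.69 in DMSO, 7.03, 7.35 and 7.52 after 50 nM for 24 h and 7.00, 7.21 and 7.52 after 100 nM. The differences were 0.40 (SE 0.15, unadjusted p = 0.016, adjusted p = 1.0 by limma) and 0.34 (SE 0.15, unadjusted p = 0.036, adjusted p = 0.67). The test of the effect of 100 nM between the days gave -0.46 for ITGA3 (SE 0.21, adjusted p = 0.32).

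The remaining laminin receptors gave no call. ITGA7, the laminin-binding subunit of muscle and nerve, was 11.90, 11.85 and 12.00 in DMSO on day 8 and 11.58, 11.47 and 11.83 with 100 nM, at -0.29 (SE 0.13, adjusted p = 0.19). ITGA6 was 4.92, 5.22 and 5.06 in DMSO and 4.70, 5.09 and 4.54 with 100 nM, with 2 of 3 rotenone arrays above background. Its difference was -0.29 (SE 0.32, adjusted p = 0.72). Among the RGD-binding subunits, which hold fibronectin and vitronectin, ITGAV differed by -0.07 (SE 0.10) and ITGA5 by -0.06 (SE 0.18) with 100 nM. ITGA4 had a difference of 0.54 with 50 nM for 24 h (SE 0.16, adjusted p = 0.045), short of a fold change of 1.5.

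Collagen IV is the network of the basement membrane, and its common trimer has 2 chains made by COL4A1 and 1 made by COL4A2. COL4A2 was 11.80, 11.70 and 12.02 in DMSO on day 8, 12.40, 12.16 and 12.21 with 50 nM for 12 h, 12.11, 11.92 and 12.23 with 50 nM for 24 h, and 12.09, 12.21 and 12.37 with 100 nM. The 12 h and 100 nM groups were above all DMSO arrays. The log2 fold change was 0.42 (SE 0.11, adjusted p = 0.034), 0.25 (SE 0.11, adjusted p = 0.22) and 0.39 (SE 0.11, adjusted p = 0.036), in each case under a fold change of 1.5 and so not called. COL4A1 was 7.33, 7.64 and 7.34 in DMSO and 7.41, 7.78 and 7.47 with 100 nM. Its groups overlapped, at 0.12 (SE 0.16, adjusted p = 0.79).

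On day 15, COL4A2 was 11.55, 11.64 and 11.69 in DMSO and 11.59, 11.28 and 11.36 after 100 nM. The test between the days gave -0.60 for COL4A2 (SE 0.16, adjusted p = 0.052), just short of a call. With slide as a block in place of the batch correction it became a call, at -0.62 (adjusted p = 0.027), and it was also called with the authors' values, at -0.59 (adjusted p = 0.010), with an offset of 50, with the filter on spots well above background and with the brightest probe. Scaling to the 75th percentile left it at -0.70 (adjusted p = 0.053).

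The 2 genes lie head to head on chromosome 13, and their promoter windows are shown because they share 226 bases, from 110307108 to 110307333. The windows are chr13:110307108-110307407 on the minus strand for COL4A1 and chr13:110307034-110307333 on the plus strand for COL4A2 (GRCh38.p14, RefSeq). Capitals mark GGGCGG on either strand, which was found 2 times in the COL4A1 window and 1 time in the COL4A2 window.
COL4A1: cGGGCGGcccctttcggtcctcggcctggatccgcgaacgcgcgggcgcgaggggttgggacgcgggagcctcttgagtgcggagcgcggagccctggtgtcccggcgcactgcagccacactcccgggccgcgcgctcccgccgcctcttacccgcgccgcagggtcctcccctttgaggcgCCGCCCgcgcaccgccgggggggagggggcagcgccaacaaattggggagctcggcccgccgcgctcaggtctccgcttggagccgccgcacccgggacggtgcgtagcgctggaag
COL4A2: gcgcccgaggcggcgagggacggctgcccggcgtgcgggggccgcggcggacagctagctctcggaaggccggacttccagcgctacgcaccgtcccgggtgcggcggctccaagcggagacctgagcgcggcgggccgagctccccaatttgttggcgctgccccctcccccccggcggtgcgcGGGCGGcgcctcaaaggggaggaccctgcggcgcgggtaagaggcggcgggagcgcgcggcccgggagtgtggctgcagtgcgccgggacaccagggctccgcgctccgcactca

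The other basement membrane genes gave no call with rotenone. None of 12 laminin chains was called by limma in the 3 day 8 comparisons, against 3.45%, 2.8% and 1.75% of all genes, and 1 chain in each had an unadjusted p under 0.05, against 20.6%, 19.6% and 16.8%. The alternatives in processing gave no call for the laminin chains named here. LAMB1, the beta 1 chain, was 11.17, 11.16 and 11.02 in DMSO on day 8 and 10.90, 10.76 and 10.81 with 100 nM. The groups did not overlap, and the difference of -0.29 (SE 0.09, adjusted p = 0.055) missed both thresholds. LAMC1, the gamma 1 chain of most laminins, was 8.61, 8.65 and 8.71 in DMSO and 9.12, 9.01 and 8.85 with 50 nM for 24 h, at 0.34 (SE 0.15, adjusted p = 0.21). With 100 nM, LAMA1 differed by -0.36 (SE 0.28), LAMA2 by -0.14 (SE 0.23), LAMA4 by 0.24 (SE 0.17), LAMA5 by 0.15 (SE 0.18) and LAMB2 by -0.15 (SE 0.13). COL18A1, the basement membrane collagen that releases endostatin, differed by 0.02 (SE 0.19) and COL6A1 by -0.06 (SE 0.11).

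Rotenone was above or below DMSO on all arrays of day 8 for 24 of the 83 genes with 100 nM, against 28.5% of all genes. It was so for 23 with 50 nM for 24 h and 18 with 50 nM for 12 h, against 28.1% and 23.6%. With 100 nM, an adjusted p under 0.05 at any fold change was reached by 5 genes, against 9.48% of all genes. These were ITGA10, COL5A2, ITGA3, COL4A2 and ITGB1BP1. ITGB1BP1, also named ICAP1, binds the tail of the beta 1 subunit and keeps it inactive. It was 9.79, 9.78 and 9.84 in DMSO and 10.14, 10.11 and 10.08 with 100 nM, a difference of 0.31 (SE 0.08, adjusted p = 0.023).

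When the exposures to 50 nM were compared on day 8, 24 h against 12 h, limma called 0 of the 83 genes, against 0.226% of all genes. An unadjusted p under 0.05 was reached by 4 (all genes 10.9%), COL5A1, COL2A1, COL4A5 and COL12A1. The smallest p was that of COL5A1, with 0.52 (SE 0.17, adjusted p = 0.21). Restricting the probes to spots well above background, or taking the brightest probe of a gene, each gave 1 call, COL5A1. Between 100 nM and 50 nM at 24 h, limma called 0 of 83 and 0 of all 21239 genes, 2 genes (COL5A2 and ITGB6) had an unadjusted p under 0.05 (all genes 4.17%), and no alternative gave a call.

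After wash-out, on day 15, limma called 0 of the 83 genes in each of the 3 comparisons, as it called 0 of all genes. An unadjusted p under 0.05 was reached by 9 genes after 100 nM (all genes 7.21%), 8 after 50 nM for 24 h (3.28%) and 4 after 50 nM for 12 h (3.47%). A fold change over 1.5 with an unadjusted p under 0.01 was reached by 0, 0 and 1 (all genes 0.763%, 0.24% and 0.452%), the 1 being COL3A1, which was above background on no array. The groups did not overlap for 10, 11 and 8 genes, against 7.84%, 7.15% and 7.45% of all genes. All these counts of calls were 0 without day 15 DMSO replicate 1 as well. The smallest adjusted p was that of COL9A3 after 100 nM, with 11.61, 11.73 and 11.83 in DMSO and 11.20, 10.91 and 11.35 after rotenone. The rotenone arrays were all lower, at -0.57 (SE 0.14, adjusted p = 0.37). Leaving out 100 nM replicate 1 gave 1 call, COL22A1, which was above background on no array of any group. The median log2 fold change after 100 nM was -0.03 over the 83 genes and -0.03 over all genes. Scaling each array to its 75th percentile in place of quantile normalization moved it to 0.27 over the 83 genes and to 0.07 over all genes, so that no direction is given for the genes as a group on day 15.

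Of the 83 genes, 2 had an effect of 100 nM that differed between the days, against 1.92% of all genes. These were ITGA10 and COL5A2, described above. With an unadjusted p under 0.01 it was 5 genes, against 3.6%, with COL4A2, COL9A3 and ITGB1BP2 added. The test for COL9A3 gave -0.76 (SE 0.20, adjusted p = 0.053). COL9A3 was called when slide was fitted as a block instead of the batch correction, and with 75th percentile scaling, the processed signal, an offset of 50, the filter on spots well above background, the brightest probe and the authors' values, and not without batch correction or with slides 2 and 3 only.

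Between day 8 and day 15 in DMSO, 14 of the 83 genes were called (16.9%), 4 up and 10 down, against 12.2% of all genes, 5.79% up and 6.38% down. A fold change over 1.5 with an unadjusted p under 0.01 was also reached by 14, against 12%, an unadjusted p under 0.05 by 30, against 33.7%, and 39 did not overlap between the days, against 40%. By family these were 10 of 43 collagens, 3 of 12 laminin chains, 1 of 3 integrin-binding proteins and 0 of 25 integrin subunits. COL6A2, COL9A2, LAMA2 and ITGB1BP2 rose. COL2A1, COL4A5, COL9A1, COL9A3, LAMC1 and 4 collagens named after their values were seen (COL7A1, COL13A1, COL23A1 and COL27A1) fell. With the processed signal the split of calls was 14 up and 7 down, with 2273 up and 1138 down over all genes against 1230 and 1356 before, and with the 75th percentile it was 7 up and 5 down. The processed signal moved the median of all genes from -0.04 to 0.15 and that of the 83 genes from -0.06 to 0.36. Scaling to the 75th percentile ended the calls of COL9A1 (adjusted p = 0.061), COL13A1 (0.072), COL23A1 (0.22) and COL27A1. Over the alternative settings, COL9A1 and COL13A1 were called in 9 of 11 each, COL23A1 in 6 of 11 and COL27A1 in 5 of 10. Leaving out day 8 DMSO replicate 2 ended that of COL7A1 (0.050), and leaving out day 15 DMSO replicate 1 that of COL27A1 (0.064).

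The 3 chains of collagen IX, a collagen that sits on the surface of fibrils and is made of 1 chain from each gene, did not change in the same direction. COL9A1 was 6.62, 6.34 and 6.56 on day 8 and 5.63, 5.08 and 5.46 on day 15, a fall of -1.11 (SE 0.25, adjusted p = 0.0025). COL9A3 was 12.73, 12.69 and 12.98 and then 11.61, 11.73 and 11.83, a fall of -1.08 (SE 0.14, adjusted p = 1.5e-05). COL9A2 was 9.21, 9.44 and 9.09 and then 10.06, 10.04 and 9.80, a rise of 0.72 (SE 0.18, adjusted p = 0.0076). The days did not overlap for any of the 3 chains. With rotenone on day 8, COL9A2 was lower by -0.54 with 100 nM (SE 0.18, adjusted p = 0.077) and COL9A1 by -0.51 (SE 0.25, adjusted p = 0.24), while COL9A3 differed by 0.19 (SE 0.14).

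The promoter windows of COL9A1 (chr6:70283148-70283447, minus strand of GRCh38.p14) and COL9A2 (chr1:40317237-40317536, minus strand) are shown because these chains of 1 trimer moved in opposite directions. GGGCGG, in capitals, was found 3 times for COL9A2 and 0 times for COL9A1, where neither GGAATG nor TGANTCA was found. In COL9A2, 2 of the matches stand side by side and share a base. No window was given for COL9A3. Among genes that rose between the days, COL6A2 had 4 matches to GGGCGG and LAMA2 had 0. A link between the motif and the direction of change was not tested.
COL9A1: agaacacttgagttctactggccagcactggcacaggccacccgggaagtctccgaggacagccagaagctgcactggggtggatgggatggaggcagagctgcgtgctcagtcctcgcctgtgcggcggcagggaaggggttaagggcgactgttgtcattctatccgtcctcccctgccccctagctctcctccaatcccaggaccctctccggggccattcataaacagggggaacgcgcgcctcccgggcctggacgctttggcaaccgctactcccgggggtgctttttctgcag
COL9A2: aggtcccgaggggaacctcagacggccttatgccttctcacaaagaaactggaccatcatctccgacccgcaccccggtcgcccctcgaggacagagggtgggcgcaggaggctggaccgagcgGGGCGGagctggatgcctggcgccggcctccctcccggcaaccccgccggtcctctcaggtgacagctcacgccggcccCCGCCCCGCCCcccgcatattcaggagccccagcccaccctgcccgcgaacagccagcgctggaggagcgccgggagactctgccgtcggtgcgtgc

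**Figure D4:**
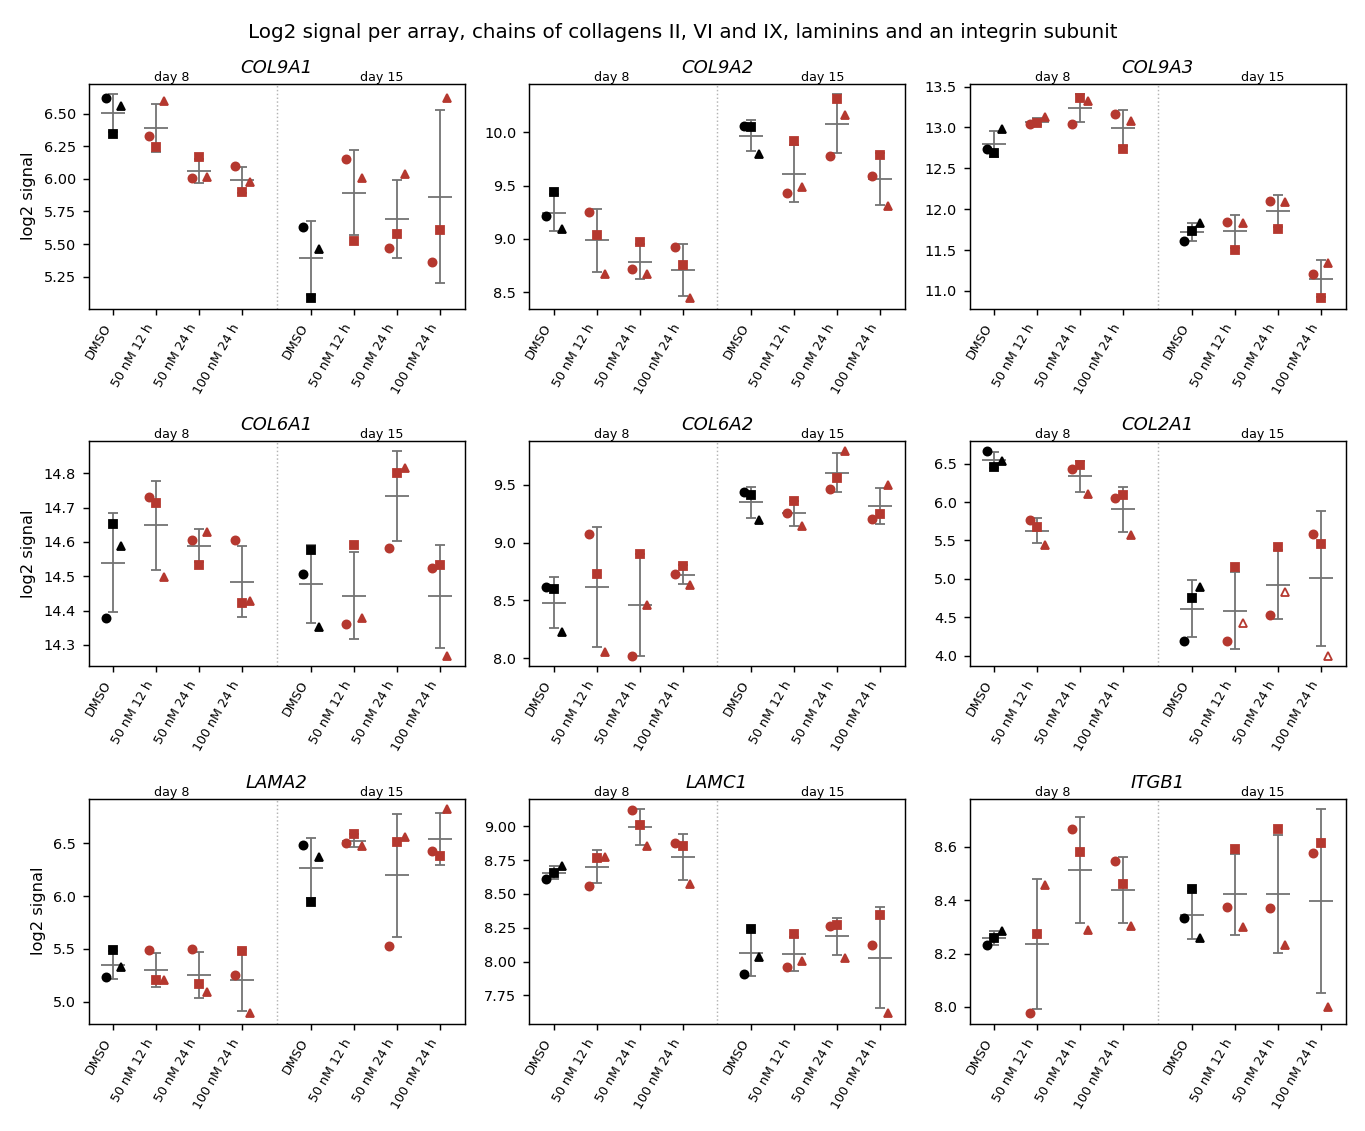
Normalized log2 signal (y axis) of 9 genes on each array, by group (x axis), with DMSO in black and rotenone in red. Circles, squares and triangles are slides 1, 2 and 3, open symbols are not well above background, and bars give the mean ± SD (n = 3). COL9A1, COL9A3 and COL2A1 are lower on day 15 and COL9A2, COL6A2 and LAMA2 are higher.

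Among the other collagens, COL2A1 had the largest called change. It was 6.66, 6.46 and 6.54 on day 8 and 4.19, 4.75 and 4.89 on day 15, with all 6 arrays above background and no overlap. The log2 fold change was -1.94 (SE 0.34, adjusted p = 0.00029). COL6A2, which makes 1 of the chains of the beaded filaments of collagen VI, was 8.61, 8.60 and 8.23 and then 9.44, 9.42 and 9.19, a rise of 0.87 (SE 0.22, adjusted p = 0.0061). Its partner COL6A1 was 14.38, 14.65 and 14.59 and then 14.51, 14.58 and 14.35, at -0.06 (SE 0.11, adjusted p = 0.75). COL4A5, a chain of the collagen IV of kidney and other basement membranes, was above background on 1 of 3 arrays on day 8 and on none on day 15. It was called down (adjusted p = 0.0031), with no size given because most of its arrays were at background. The call was lost with an offset of 50, at -0.36, and with slides 2 and 3 only (adjusted p = 0.14).

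COL23A1, a collagen that spans the cell membrane, was 5.46, 5.64 and 5.85 on day 8 and 4.89, 5.06 and 4.14 on day 15, with 2 of 3 arrays of day 15 above background. Its fall of -0.96 (SE 0.31, adjusted p = 0.029) was lost without any 1 of 3 arrays, day 8 replicate 2 (adjusted p = 0.066), day 8 replicate 3 (0.10) and day 15 replicate 3 (0.15). COL1A1 was above background on all day 8 arrays and on none of DMSO on day 15, and was not called (adjusted p = 0.087). Its log2 fold change was -1.115, a size that rests on day 15 values at background, and ranged from -1.92 to -0.38 over the alternatives. With only the compared groups in the fit it was called (adjusted p = 0.0020). COL4A1 differed by -0.14 (SE 0.16), COL4A2 by -0.21 (SE 0.11), COL18A1 by -0.39 (SE 0.19, adjusted p = 0.16) and COL1A2 by 0.30 (SE 0.17). With the processed signal limma called COL1A2 up between the days, at 1.08 (adjusted p = 0.00030).

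Laminin chains changed in both directions. LAMA2, the alpha 2 chain of the laminins of muscle and nerve, was 5.23, 5.48 and 5.32 on day 8 and 6.49, 5.94 and 6.37 on day 15, a rise of 0.92 (SE 0.23, adjusted p = 0.0056). LAMC1 was 8.61, 8.65 and 8.71 and then 7.91, 8.24 and 8.03, a fall of -0.60 (SE 0.15, adjusted p = 0.0062). The days did not overlap for either chain. LAMC1 was close to the fold threshold and was under it without day 8 replicate 3, without day 15 replicate 1 or 3, with an offset of 50 and with the authors' values. LAMA2 was called in 8 of 11 settings, with values from 0.48 to 1.49. The settings that lost the call included the one without batch correction (adjusted p = 0.14). The beta chains were not called, with LAMB1 at -0.23 (SE 0.09, adjusted p = 0.080) and LAMB2 at 0.32 (SE 0.13, adjusted p = 0.092). LAMA1 differed by 0.14 (SE 0.28), LAMA4 by 0.16 (SE 0.17) and LAMA5 by -0.35 (SE 0.18). The LAMA4 value is a mean over 4 probes. With the brightest probe alone limma called LAMA4 up, at 0.99 (adjusted p = 0.020), the 1 call for it among 11 alternative settings.

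**Figure D5:**
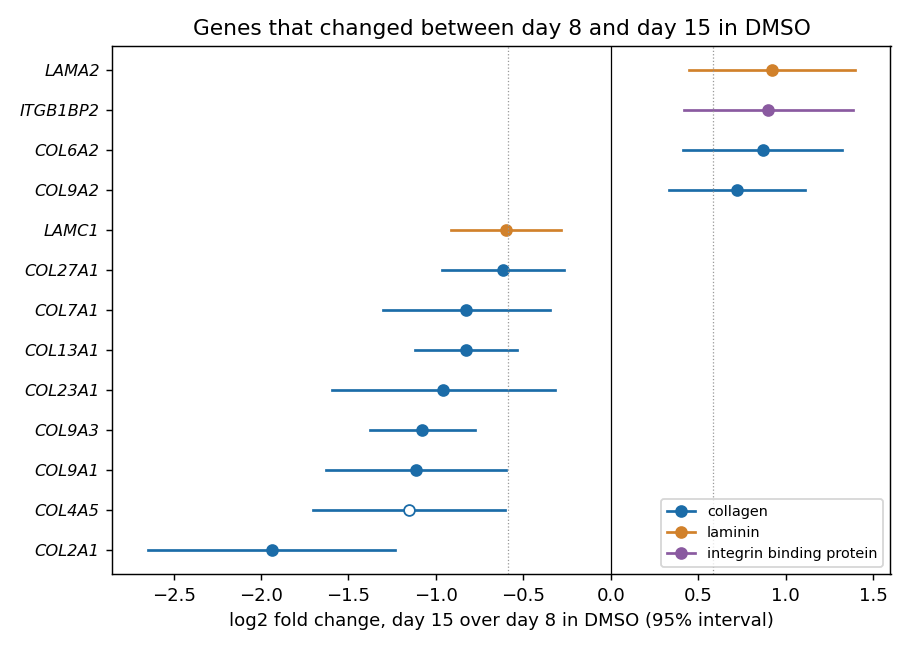
Log2 fold change between day 15 and day 8 in DMSO (x axis) with its 95% interval for the called genes named on the y axis, colored by family, with the fold threshold as dotted lines. The open circle is COL4A5, above background on no day 15 array. The 4 genes to the right of 0 are LAMA2, ITGB1BP2, COL6A2 and COL9A2, and COL2A1 at -1.94 lies farthest to the left.

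Of 25 integrin subunits, limma called 0 between the days, against 12.2% of all genes, and 4 of the subunits had an unadjusted p under 0.05, against 33.7%. Many subunits were dim, which limits what could be called. No group had all its arrays above background for ITGA2, ITGA8, ITGA11, ITGAD, ITGAL, ITGAM, ITGAX, ITGB2, ITGB3, ITGB6 or ITGB8. Of the subunits set beforehand, ITGB3 and ITGB8 were called with the processed signal, both with few or no arrays above background. ITGA7 was 11.90, 11.85 and 12.00 on day 8 and 12.21, 12.28 and 12.35 on day 15, with no overlap, at 0.36 (SE 0.13, adjusted p = 0.045) and a fold change under 1.5. ITGAV was 8.15, 7.95 and 7.92 and then 7.65, 7.84 and 8.00, at -0.18 (SE 0.10, adjusted p = 0.24), and ITGB1 differed by 0.09 (SE 0.16). ITGB5 differed by -0.11 (SE 0.21) and ITGA5 by 0.32 (SE 0.18, adjusted p = 0.22). ITGB1BP2, also named melusin, which binds the beta 1 tail in striated muscle, was 6.45, 6.72 and 6.59 and then 7.47, 7.34 and 7.65, a rise of 0.90 (SE 0.23, adjusted p = 0.0074).

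Among markers of dividing and precursor cells, those of dividing cells were lower on day 15 in DMSO. The mean signal over all 12 genes was between 6.28 and 6.90 in DMSO on day 8 and between 5.58 and 5.74 on day 15. Of the 12, 7 were called down and 1 up. TOP2A, AURKB and BUB1 were above background on all DMSO arrays of day 8 and on none of day 15, and SOX2 and HES1 on none of either day. The precursor markers NES and VIM were higher in DMSO on day 15, with group means of 10.85 against 10.45 and 14.68 against 14.01. PAX6 was 4.71 on day 15 against 4.90 on day 8. With 100 nM on day 8 the mean was between 5.98 and 6.61, and 0 of the 12 were called, with 7 above background on all arrays against 10 in DMSO. The part of these cells in the collagen and laminin changes was not tested. Of 7 markers of endothelial cells, 4 were above background on all DMSO arrays of day 8 and 2 on all of day 15, and 2 were called down between the days. Their mean was between 4.90 and 5.29 over the DMSO arrays of both days. The brightest was CLDN5, a claudin of tight junctions, above background on all 6 arrays with group means of 10.05 on day 8 and 8.88 on day 15. It was called, at -1.18 (SE 0.12, adjusted p = 4.22e-07). FLT1 was also lower, with group means of 4.3 and then 3.6. CDH5, with 5.2 and then 5.4, and VWF, with 5.2 and then 5.3, were not lower on day 15. PECAM1 and TEK were above background on no DMSO array of either day. Of 7 astrocyte markers 1 was above background on all arrays of each day, and the list mean was between 4.27 and 4.65 over both days. The part of these cells was not tested either.

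Genes that make, cut or sense the matrix were counted from lists chosen by knowledge of the pathway. With 100 nM on day 8, where 1.43% of all genes were called up and 2.02% down, 1 of 30 collagen-modifying enzymes was called up, P4HA2, a prolyl hydroxylase of collagen, at 0.59 (SE 0.15, adjusted p = 0.014). Of 32 adaptors and focal adhesion proteins, 2 were called up, the larger being TGFB1I1, a paxillin relative, at 0.67 (SE 0.12, adjusted p = 0.0015). Of 20 matrix metalloproteinases and inhibitors, 1 rose and 1 fell, the larger being the inhibitor TIMP1 at 0.68 (SE 0.14, adjusted p = 0.0034). Of 23 other basement membrane and adhesive matrix proteins, 1 rose and 1 fell, and EGFL6, which the study's own tables name, rose by 1.26 (SE 0.21, adjusted p = 0.00073). None of 16 non-integrin receptors was called by limma. The medians of these lists were between -0.06 and 0.05, beside -0.02 over all genes.

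In DMSO between the days, where 6.38% of all genes were called down and 5.79% up, 9 of 30 collagen-modifying enzymes fell and 1 rose, with a median of -0.36 against -0.04 over all genes. The largest was BMP1, which cuts the propeptide from procollagen, with -1.75 (SE 0.21, adjusted p = 4.5e-06). Of the matrix proteins 4 rose and 2 fell, with NPNT, a ligand of the alpha 8 integrin, at 2.24 (SE 0.42, adjusted p = 0.00066). Of the metalloproteinases and inhibitors 2 rose and 2 fell, with MMP2 at -1.32 (SE 0.22, adjusted p = 0.00021). Of the adaptors 1 rose and 4 fell, with TNS3, a tensin, at -1.39 (SE 0.35, adjusted p = 0.0067). Of the non-integrin receptors 2 rose and 0 fell. On day 15 after rotenone, limma called none of the genes of these lists.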

How the data were processed

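Each array held 62976 spots, 308 of them negative controls. The authors deposited the scanner's intensity of every spot, with background marks and outlier flags, and their own normalized log2 values as 21733 rows, used only as an alternative. Feature Extraction 11.5.1.1 wrote slides 1 and 3 and 12.0.0.7 slide 2, per the file headers.

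Median intensities received normexp background correction with an offset of 0 and quantile normalization, as in the methods, with limma 3.58.1 in R 4.3.3. Slide 1 was corrected against slides 2 and 3 with parametric ComBat, groups as covariates, tested on simulated data, as was the fit. The simulated data held a shift of slide 1 and otherwise independent noise. They therefore cannot show how a fit without a slide term does where arrays of each slide deviate together, as they did here. The offset and covariates were set here. A spot was kept if, on 3 or more arrays, it passed 1.1 times the 95th percentile of negative controls. Control spots and flagged values were dropped, a mean was taken over the spots and then the probes of each gene, and gene names came from RefSeq accessions. All 24 arrays entered 1 fit (lmFit, eBayes), and tests are two-sided. The second rule of the methods was a fold change over 1.5 with an unadjusted p under 0.01.

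The members and lists were chosen with earlier results of these data known. The text names every called member where 12 or fewer were called, otherwise the 6 with the largest change in each direction, and chains and subunits set beforehand. Of each pathway list it names the called gene with the largest change. A few items that these rules would name are not reported here. Figures used matplotlib 3.10.9.

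The replicate number was the slide. Before batch correction, arrays of the same number deviated together in all 84 pairs (lowest correlation 0.171, median 0.458), against a median of -0.354 in 168 other pairs. Deviations were taken from the group means, so the negative value follows from the positive one and adds no separate evidence. An effect of the slide and a shared culture cannot be told apart. Beyond the correction of slide 1, the main fit held no slide term, and the slide as a block was an alternative. Each group had 1 fixed position on the slides, and an effect of position cannot be told apart from that of the group. The alternatives were the scaling, processed signal, offset, batch correction, slide as a block, slides 2 and 3 only, samples in the fit, filters, brightest probe, the authors' values and leaving out each array.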

Additional observations from a re-analysis of the deposited data

Results flagged for a closer look

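The effect of 100 nM rotenone differed between the days, by limma's test of the difference itself, for 2 genes. For ITGA10 the difference of the log2 fold changes, day 15 minus day 8, was 1.51, and for COL5A2 it was 0.97. Both were lower than DMSO on all 3 rotenone arrays of day 8 and overlapped with DMSO on day 15. ITGA10 was called in 10 of 11 alternative settings and COL5A2 in 9 of 11, and each in all 12 fits that left out an array.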

How the results depend on the processing

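No value of a called gene changed direction. Of 419 values of the 24 calls under the alternatives, 367 stayed called. ITGA10 with rotenone on day 8 was called in all 11 settings and all fits that left out an array, and COL5A2 with 100 nM likewise.

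With 100 nM on day 8, the count of 3 became 6 with the processed signal, and was 3 to 3 over the fits that left out an array. With 50 nM for 24 h it became 5 with the processed signal and 1 with slides 2 and 3 only, and 2 to 3 over left-out arrays. With 50 nM for 12 h it became 4 with the processed signal and 1 without batch correction or with slides 2 and 3 only, and 2 to 3 over left-out arrays. In DMSO between the days it became 7 with an offset of 50 and 5 with slides 2 and 3 only, and 13 to 15 over left-out arrays, 13 of them without day 15 DMSO replicate 1. For the difference between the days, the count of 2 became 4 with 75th percentile scaling, the processed signal, an offset of 50, the filter on spots well above background and the brightest probe, 5 with the authors' values, 1 without batch correction and 0 with slides 2 and 3 only, and 2 to 4 over left-out arrays (4 without day 8 DMSO replicate 3 or day 15 100 nM replicate 3). Between 24 h and 12 h it became 1 with the filter on spots well above background and with the brightest probe. With 100 nM on day 15 it was 0 to 1 over left-out arrays. With the slide as a replicate block in place of ComBat, the difference between the days gave 4 calls, with COL4A2 and COL9A3 added, and no other count moved by over 1.5 times. The cause of these moves was not tested.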
